A study of Mus musculus and Sus scrofa with 18 samples.

Results

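Cyclic nucleotide phosphodiesterases are the enzymes that hydrolyse cAMP and cGMP, and so they end the signals that adenylyl and guanylyl cyclases start. In the striatum dopamine and adenosine receptors raise or lower cAMP in the medium-sized spiny projection neurons, and PDE10A, an enzyme that acts on both cAMP and cGMP, is known for its high level in these cells. The set described here was chosen by name and holds 10 phosphodiesterase genes, Pde1a, Pde1b, Pde1c, Pde2a, Pde4a, Pde4b, Pde4d, Pde7b, Pde8b and Pde10a, of the 55357 genes in the mouse count table. All 10 were found by symbol and all 10 passed the filter on low counts. Another 14 phosphodiesterase genes and 86 genes of cyclic nucleotide signalling were followed beside them. The set and these lists were chosen with earlier results of these data known, so their shares set against all genes are descriptive.

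The RNA came from the striatum of 9 mice, with 3 mice in each of 3 groups and 1 library per mouse. HD 140Q-KI mice are heterozygous for a huntingtin allele whose own exon 1 was replaced by the human HTT exon carrying a long CAG repeat. WT mice were injected in the striatum on both sides with AAV9 for a control gRNA and received no CasRx, untreated HD mice received AAV9-CasRx with the control gRNA, and treated HD mice received AAV9-CasRx with the HTT gRNAs. CasRx is an RNA-cleaving Cas13d enzyme, which was driven here by the ubiquitous CAG promoter, and the gRNA vectors also carried GFP. The mice were injected at 6 months of age and the tissue was taken 1.5 months later. Since only the HD groups received CasRx, a comparison with WT covers both the mutant allele and CasRx, and these cannot be told apart.

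Each library held between 27184356 and 32102121 counts, and levels are given as CPM, which are counts scaled to a common library size, here after TMM normalization. Counts of the 10 genes ran from 499 for Pde1c to 49730 for Pde10a in a library, with Pde1c and Pde4d counted least. The libraries sample the 3′ ends of mRNA. CPM values of a gene were compared between mice. Differences and shares between genes were taken within each mouse and then compared between groups. Levels of different genes within a group were not tested against each other. Htt, the targeted gene, stood at 189, 191 and 182 CPM in WT, at 145, 140.4 and 149.6 CPM in untreated and at 139.7, 130.5 and 136 CPM in treated mice. Counts at the 3′ end do not tell the 2 alleles apart, and treated and untreated mice differed in Htt by -0.10 ± 0.06 (log2 fold change ± SE, adjusted p = 0.942 in edgeR's quasi-likelihood test).

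Libraries differed in ways other than their group. The summed CPM of 20 projection neuron markers lay between 10125 and 13630 in WT, between 3858 and 4472 in untreated and between 5640.4 and 5774 in treated mice, and 19 of the 20 passed the test as lower in untreated mice than in WT. The summed CPM of 10 cortical neuron markers was 1162, 569 and 360.4 in the WT mice, and it lay between 1296 and 1583 in untreated and between 923 and 980.4 in treated mice, with none of the 10 at 0. WT replicate 1 therefore stood apart from the other WT mice. The microglia markers summed to between 379 and 426 CPM in WT, to 507, 571 and 1343 CPM in untreated and to between 611 and 859.8 CPM in treated mice. The 10 choroid plexus markers summed to 67.2, 3862 and 1252 CPM in WT, to between 38.6 and 191 CPM in untreated and to between 41.7 and 1325 CPM in treated mice, and all 10 were lower in untreated mice than in WT at an unadjusted P under 0.05, 1 of them at an adjusted p under 0.05. Of 8 tested lymphocyte markers 5 passed as higher in untreated mice and 1, Cd4, as lower, 6 of the 8 being at 0 in at least 1 library. Among 10 markers each, 2 oligodendrocyte markers passed as lower and 1 as higher in untreated mice, 2 endothelial markers as higher, 2 interneuron markers as lower and 0 astrocyte markers, of which 4 had an unadjusted P under 0.05 in edgeR. The part of these other cell types in the results was not tested. A fit with the cortical neuron markers as a covariate is given below. Their summed CPM did not overlap between WT and untreated mice. Marker level and group can therefore not be told apart in that fit. Y-linked genes had between 3435 and 5005 counts in the WT mice and untreated replicate 1 and 0 counts in the other 5 libraries. In bulk tissue, fewer cells of a type and less RNA per cell cannot be told apart.

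The question of the first comparison was how phosphodiesterase mRNA in untreated HD striatum differs from that in WT. The genes for PDE10A, PDE1B and PDE7B were lower by the largest factors, Pde2a, Pde1c, Pde8b and Pde4b were lower by smaller factors, and Pde1a was higher. Of the 10 genes, 7 fell and 1 rose at an adjusted p under 0.05. Among all 19463 genes tested, 6.1% passed as lower and 4.58% as higher. The median log2 fold change over the 10 genes was -0.61, against 0.02 over all genes tested.

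Pde10a, on mouse chromosome 17, had 1272, 1543 and 1653 CPM in the WT mice. It had 356, 419.7 and 307 CPM in the untreated mice and 548, 517 and 523 CPM in the treated mice. The 3 groups did not overlap, in the order WT, treated, untreated. Untreated mice held 24.2% of the WT mean, a log2 fold change of -2.04 ± 0.13 (SE, n = 3 mice per group, adjusted p = 0.000154 in edgeR's quasi-likelihood test). Treated mice held 35.5% of the WT mean, with a log2 fold change of -1.49 ± 0.13 (adjusted p = 0.00174). Pde10a stayed lower in untreated mice than in WT under all 19 alternatives tried, with log2 fold changes between -2.17 and -1.75. In treated mice it passed under 18 of them, and with the presence of Y-linked counts as a covariate it had -1.52 and an adjusted p of 0.148.

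Pde1b, on chromosome 15, codes for a calcium- and calmodulin-stimulated enzyme that hydrolyses cAMP and cGMP. It had 1022, 1389 and 1294 CPM in WT, 373, 446 and 364 CPM in untreated and 583, 560.4 and 563 CPM in treated mice. The order of the groups was that of Pde10a, again without overlap. Untreated mice held 31.9% of the WT level (log2 fold change -1.65 ± 0.13, adjusted p = 0.000262) and treated mice 46.0% (-1.12 ± 0.12, adjusted p = 0.00324). Pde7b, on chromosome 10, codes for a cAMP-specific phosphodiesterase. It had 183, 204 and 299.7 CPM in WT, 81.8, 87.2 and 74.0 CPM in untreated and 117, 103 and 114 CPM in treated mice. Untreated mice held 35.3% of the WT level (-1.50 ± 0.17, adjusted p = 0.00111) and treated mice 48.4% (-1.05 ± 0.16, adjusted p = 0.0105). As with Pde10a, the fall of Pde1b and Pde7b in untreated mice passed under all 19 alternatives. In treated mice Pde7b did not pass when any of the 3 treated mice was left out, with adjusted p-values up to 0.0762, nor with the Y-linked covariate (adjusted p = 0.467), under which Pde1b did not pass either (0.184).

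**Figure D1:**
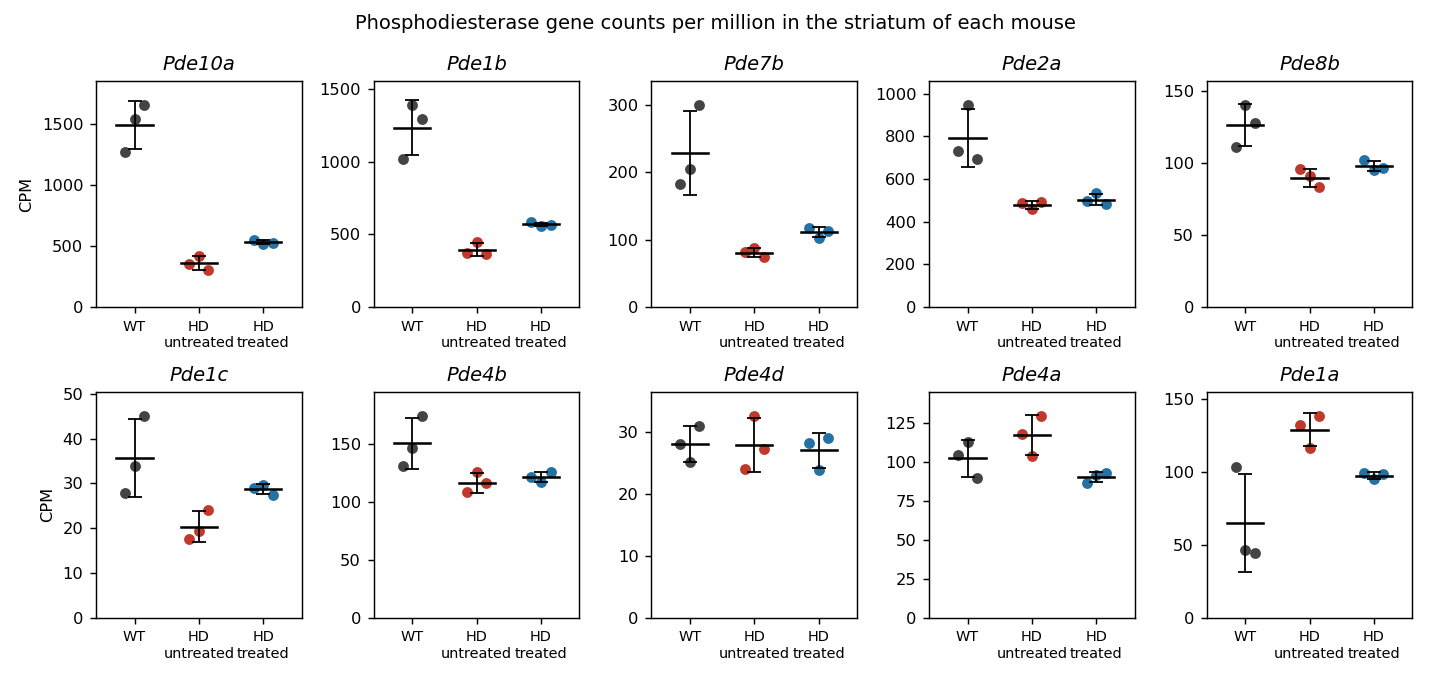
CPM of the 10 phosphodiesterase genes (vertical axes, from 0, 1 panel per gene) in WT, untreated HD and treated HD mice. Points are single mice, long bars are means and whiskers are SD over 3 mice; for Pde10a and Pde1b the groups lie in the order WT, treated, untreated without overlap, while for Pde1a 1 WT mouse lies at 103 CPM and the other WT mice below 50 CPM.

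The reference windows around the start sites of these 3 genes are shown because their mRNAs fell together. RefSeq annotates 2 starts for Pde10a, 3 for Pde1b and 1 for Pde7b, and the windows run from 250 bases before to 50 bases after a start on GRCm38.p6. They are given for both starts of Pde10a, the start of Pde1b that lies farthest upstream and the start of Pde7b, 5′ to 3′ on the strand of the gene. Capitals mark the GC box GGGCGG on either strand and TGACG, the short form of the cAMP response element (CRE), on either strand.
Pde10a, chr17:8801495-8801794, plus strand: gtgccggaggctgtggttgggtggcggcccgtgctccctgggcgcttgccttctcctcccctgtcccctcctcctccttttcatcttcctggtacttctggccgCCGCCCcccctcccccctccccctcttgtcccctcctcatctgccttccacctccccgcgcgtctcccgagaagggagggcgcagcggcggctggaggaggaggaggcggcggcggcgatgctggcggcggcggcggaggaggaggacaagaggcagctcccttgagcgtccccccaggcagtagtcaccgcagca
Pde10a, chr17:8849735-8850034, plus strand: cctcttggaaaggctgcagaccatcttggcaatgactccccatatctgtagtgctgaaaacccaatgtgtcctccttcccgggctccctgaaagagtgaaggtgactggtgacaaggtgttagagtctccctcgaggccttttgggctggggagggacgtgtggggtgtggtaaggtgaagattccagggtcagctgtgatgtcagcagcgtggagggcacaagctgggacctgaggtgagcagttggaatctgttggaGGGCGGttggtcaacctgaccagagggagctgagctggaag
Pde1b, chr15:103502784-103503083, plus strand: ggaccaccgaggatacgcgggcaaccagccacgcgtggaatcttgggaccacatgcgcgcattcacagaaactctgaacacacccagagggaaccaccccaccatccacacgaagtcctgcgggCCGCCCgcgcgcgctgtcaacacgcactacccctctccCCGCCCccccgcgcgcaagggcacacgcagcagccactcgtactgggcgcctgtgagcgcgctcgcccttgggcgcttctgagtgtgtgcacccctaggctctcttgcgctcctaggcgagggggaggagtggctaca
Pde7b, chr10:20548279-20548578, minus strand: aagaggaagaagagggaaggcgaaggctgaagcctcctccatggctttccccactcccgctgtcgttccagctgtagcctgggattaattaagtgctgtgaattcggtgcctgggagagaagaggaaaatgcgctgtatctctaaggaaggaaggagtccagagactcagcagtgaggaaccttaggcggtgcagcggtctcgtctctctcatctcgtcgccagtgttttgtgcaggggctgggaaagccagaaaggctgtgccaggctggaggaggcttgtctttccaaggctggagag

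The windows differed in base composition, with 71.3% and 56.7% G and C at the starts of Pde10a, 67.0% at that of Pde1b and 55.7% at that of Pde7b, against a median of 52.7% over all windows. The GC box occurred once in each Pde10a window and 2 times in the Pde1b window, and it occurred in 35.7% of the 32851 windows in the table. The letters TGACG were in none of the 4 windows shown. Over the 31 windows of all 10 genes TGACG was found in 5, belonging to Pde1a, Pde2a, Pde4a, Pde4b and Pde8b, against 20.8% of all windows, and the full CRE, TGACGTCA, was in none, against 1.79% of all windows. TGACG also lies within the full CRE, so that the counts of these motifs overlap. The 3′ libraries do not show which start a transcript used.

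Pde2a, on chromosome 7, codes for a phosphodiesterase whose hydrolysis of cAMP is stimulated by cGMP. It had 732, 946 and 694 CPM in WT, 489, 457 and 491 CPM in untreated and 496, 532 and 484 CPM in treated mice. Both HD groups lay below every WT mouse and overlapped each other. Untreated mice held 60.6% of the WT level (log2 fold change -0.72 ± 0.11, adjusted p = 0.00627) and treated mice 63.7% (-0.65 ± 0.11, adjusted p = 0.0175). The call in treated mice was lost when any treated mouse was left out (adjusted p up to 0.0904). The annotated gene Gm45837 shares 3955 exon bases with Pde2a on the same strand, and it had 358 counts over the 9 libraries against 155356 for Pde2a. How reads on shared bases were assigned is not given, so that these counts do not show how many reads the overlap affected.

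Pde1c, a calmodulin-stimulated phosphodiesterase gene on chromosome 6, had 27.8, 34.0 and 45.1 CPM in WT. It had 17.5, 19.4 and 24.1 CPM in untreated and 28.9, 29.7 and 27.5 CPM in treated mice. Untreated mice lay below all WT and treated mice, whereas the treated mice lay within or just under the WT range. The log2 fold change in untreated mice was -0.81 ± 0.18 (adjusted p = 0.0228) and that in treated mice -0.31 ± 0.17 (adjusted p = 0.338). Pde8b, a gene on chromosome 13 for a cAMP-specific enzyme, had 111, 140.4 and 128 CPM in WT, 95.8, 90.9 and 83.4 CPM in untreated and 102, 95.5 and 96.9 CPM in treated mice. Its log2 fold change was -0.49 ± 0.09 in untreated (adjusted p = 0.0130) and -0.37 ± 0.09 in treated mice (adjusted p = 0.0598), where the test was not passed, although it was with DESeq2 (0.0144), with edgeR's exact test (0.0205), without WT replicate 1 (0.0191) and without untreated replicate 3 (0.0448). Both HD groups lay below the WT mice for Pde8b. The annotated gene Gm48420 shares 447 exon bases with Pde8b on the opposite strand, with 110 counts over the 9 libraries against 27764 for Pde8b. The call for Pde1c in untreated mice was lost without WT replicate 2, untreated replicate 1 or untreated replicate 2, with adjusted p-values between 0.0564 and 0.0652 in edgeR.

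Pde4a, Pde4b and Pde4d code for the cAMP-specific phosphodiesterases that rolipram inhibits. Pde4b, on chromosome 4, had 131, 146 and 174 CPM in WT, 108, 125 and 116 CPM in untreated and 122, 117 and 126 CPM in treated mice. Its fall in untreated mice was close to the threshold (log2 fold change -0.37 ± 0.10, adjusted p = 0.0498) and was not called under 14 of 19 alternatives, among them the omission of any mouse other than WT replicate 1 (adjusted p up to 0.134). Treated mice did not pass for Pde4b (-0.31 ± 0.10, adjusted p = 0.128), but they did without WT replicate 1 (-0.40, adjusted p = 0.0470). Pde4d, on chromosome 13, had between 23.8 and 32.6 CPM in the 9 mice with the 3 groups overlapping, and its log2 fold change was -0.01 ± 0.14 in untreated and -0.05 ± 0.14 in treated mice. Pde4a, on chromosome 9, had 105, 113 and 89.6 CPM in WT, 118, 104 and 129.5 CPM in untreated and 86.7, 91.3 and 92.8 CPM in treated mice. Neither HD group passed the test against WT for Pde4a (0.20 ± 0.10, adjusted p = 0.238 for untreated and -0.18 ± 0.10, adjusted p = 0.342 for treated mice). Untreated mice held 77.5%, 99.6% and 115% of the WT mean for Pde4b, Pde4d and Pde4a, and the 3 genes were not tested against each other.

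Pde1a, on chromosome 2, was the 1 member that rose. This calmodulin-stimulated phosphodiesterase gene had 103, 46.6 and 44.6 CPM in WT, 132, 117 and 138 CPM in untreated and 98.9, 94.8 and 98.3 CPM in treated mice. All untreated mice lay above the WT mice, and the treated mice lay between WT replicate 1 and the other WT mice. The log2 fold change was 0.99 ± 0.27 in untreated (adjusted p = 0.0491) and 0.59 ± 0.27 in treated mice (adjusted p = 0.254). Without WT replicate 1 it was 1.49 in untreated and 1.08 in treated mice, and both passed the test. Without any other mouse the call in untreated mice was lost, with adjusted p-values between 0.0701 and 0.140 in edgeR. The mean log2 CPM of the cortical neuron markers had the same order of mice within WT (5.80, 4.62 and 3.87), and it was 6.12 ± 0.21 (SD) in untreated and 5.54 ± 0.001 in treated mice. The difference in log2 CPM between Pde1a and these markers was 1.14 ± 0.40 in the WT, 0.89 ± 0.17 in the untreated and 1.07 ± 0.03 in the treated mice, with overlapping groups (two-sided exact permutation p = 0.6 for untreated against WT). With the marker mean as a covariate, chosen after the data were seen, Pde1a had 0.22 in untreated mice (adjusted p = 0.633). The marker means did not overlap between WT and untreated mice, so that this fit cannot separate marker level from group. The part of cortical cells in the rise of Pde1a was not tested.

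**Figure D2:**
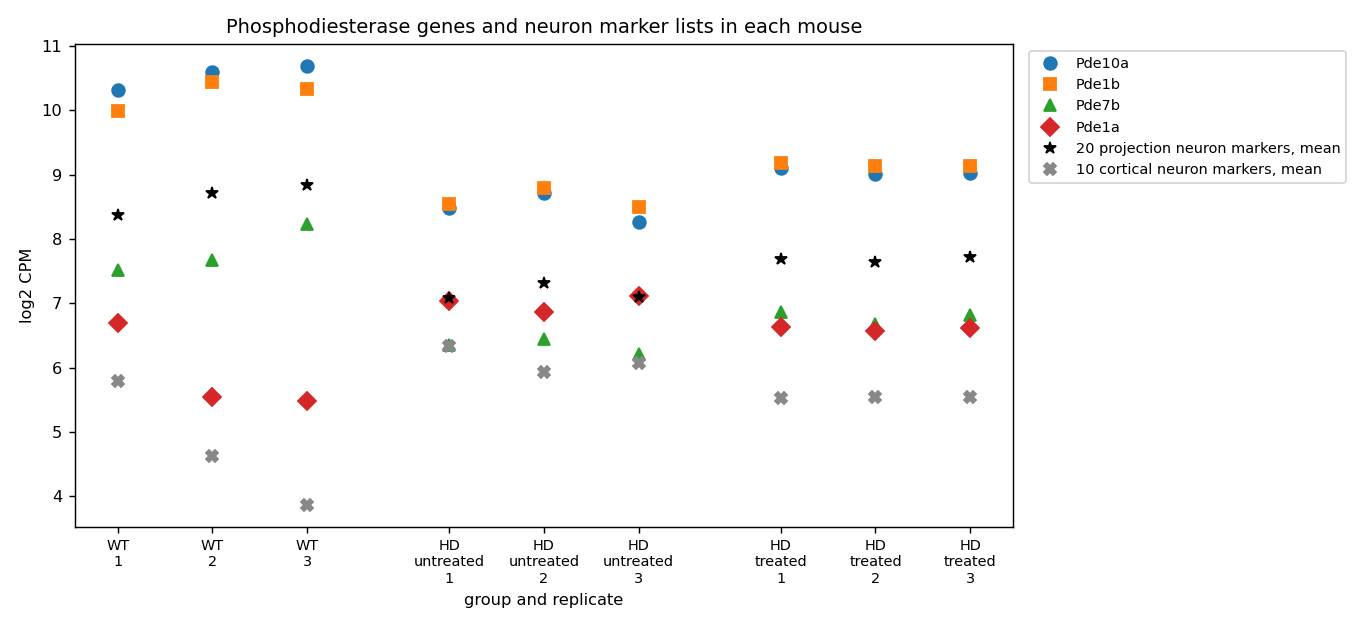
Log2 CPM (vertical axis) of Pde10a, Pde1b, Pde7b and Pde1a in each of the 9 mice, beside the mean of 20 projection neuron markers (stars) and of 10 cortical neuron markers (crosses). Pde1a and the cortical marker mean are both highest in the untreated mice and, within WT, in replicate 1, while the projection neuron marker mean lies between 8.38 and 8.84 in WT and between 7.09 and 7.32 in untreated mice.

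The same covariate left Pde10a (log2 fold change -1.75), Pde1b (-1.35) and Pde7b (-1.01) called as lower in untreated mice, with adjusted p-values of 0.00571, 0.0126 and 0.0375. These were 3 of the 8 members called without it, while over all genes the count of calls went from 2080 to 81. The other 5 lost their call, and of these Pde2a kept its size with -0.74 (adjusted p = 0.172) while Pde1c had -0.30, Pde8b -0.34 and Pde4b -0.07. With the Y-linked covariate 3 members were again called in untreated and 0 in treated mice, where edgeR without the covariate called 4. Only the untreated group held libraries both with and without Y-linked counts. With this covariate the comparison of untreated mice with WT therefore rests on untreated replicate 1 against the 3 WT mice. The comparison of treated mice with WT also rests on untreated replicate 1 against untreated replicates 2 and 3. That covariate left 251 of all genes called in untreated mice, against 2080 without it, and 3 in treated mice, against 718, so that the loss was shared by most called genes. Among the 4 libraries with Y-linked counts, untreated replicate 1 lay below all 3 WT mice for 8 of the 10 genes and above them for Pde1a and Pde4a, against 29% and 30.1% of all genes tested. In that mouse Pde10a was at 356 CPM against a lowest WT value of 1272 CPM. These are the same mice that the Y-linked fit compares for untreated against WT, so these counts are not a separate check. All treated mice lacked Y-linked counts and all WT mice had them, so that between these groups sex and group cannot be told apart.

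The fall of the phosphodiesterase genes was next set beside that of the projection neuron markers in the same mice. The difference in log2 CPM between Pde10a and the mean of the 20 markers was 1.89 ± 0.04 (SD, n = 3) in the WT, 1.31 ± 0.14 in the untreated and 1.36 ± 0.05 in the treated mice. Each HD mouse lay below each WT mouse, and the two-sided exact permutation p was 0.1 for both comparisons with WT, the smallest that 3 mice against 3 allow. Pde10a was thus lower relative to WT than the marker mean was, but it lay within the range of the single markers, of which 3 had a lower log2 fold change in untreated and 2 in treated mice. For Pde7b the difference from the marker mean was -0.84 ± 0.22 in the WT, -0.83 ± 0.09 in the untreated and -0.89 ± 0.07 in the treated mice, and the groups overlapped. Pde1b lay 1.61 ± 0.11, 1.45 ± 0.04 and 1.46 ± 0.05 above the marker mean in WT, untreated and treated mice, with exact permutation p-values of 0.1. For Pde2a the difference was larger in the HD groups, at 0.97 ± 0.32, 1.73 ± 0.18 and 1.29 ± 0.11. Against Adcy5, the main adenylyl cyclase gene of striatal projection neurons, Pde10a stood at 0.11 ± 0.19 in WT, -0.25 ± 0.14 in untreated (exact permutation p = 0.1) and -0.15 ± 0.05 in treated mice (exact permutation p = 0.2), so that it did not separate treated mice from WT.

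The reads were also spread differently over the set. The 10 genes together held 3716, 4588 and 4453 CPM in WT, 1796, 1899 and 1754 CPM in untreated and 2209.8, 2165 and 2153 CPM in treated mice. The share of these reads on Pde10a was 35.0% ± 1.86 (SD, n = 3) in the WT, 19.8% ± 2.29 in the untreated and 24.3% ± 0.45 in the treated mice. The share on Pde2a was 18.6% ± 2.68, 26.4% ± 2.06 and 23.2% ± 1.24, and that on Pde1a was 1.60% ± 1.02, 7.12% ± 0.89 and 4.47% ± 0.09. The groups did not overlap for Pde10a or Pde1a (exact permutation p = 0.1 for each pair of groups, the smallest possible). These are shares of reads, which sum to the whole within a mouse, so that a gene's share also moves with the other genes.

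**Figure D3:**
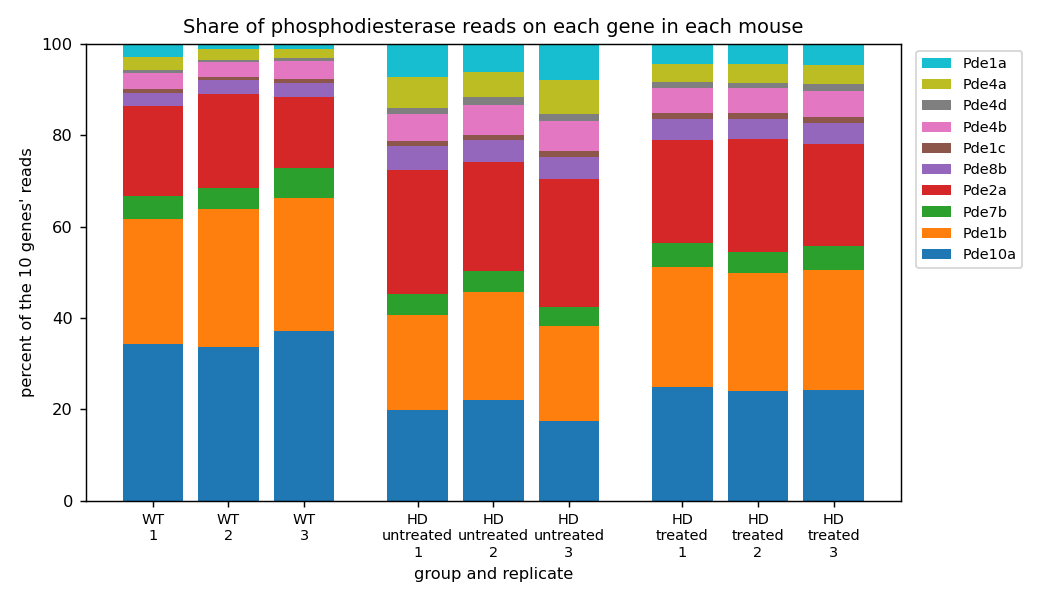
Percent of the reads of the 10 phosphodiesterase genes (vertical axis, 0 to 100) that fell on each gene, with 1 stacked bar per mouse. Pde10a, the lowest segment, takes 33.6% to 37.1% in WT, 17.5% to 22.1% in untreated HD and 23.9% to 24.8% in treated HD mice.

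In treated HD mice against WT, 4 of the 10 genes passed the test, all as lower, namely Pde10a, Pde1b, Pde7b and Pde2a. Among all genes 2.78% passed as lower and 0.904% as higher. The median log2 fold change of the 10 genes was -0.34, against 0.00 over all genes. These comparisons use the same WT mice as those of untreated mice. Under a rule that the study applies to DEGs, an unadjusted P with a change of at least 2-fold, the members that passed were Pde10a, Pde1b and Pde7b, 3 of 10 in untreated and 3 of 10 in treated mice, both with P under 0.05 and with P under 0.01. With P under 0.05 the rule took in 8.16% and 5.22% of all genes.

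The comparison of treated with untreated HD mice addressed whether the HTT gRNAs changed phosphodiesterase mRNA when both groups carry the knock-in allele and received CasRx. At an adjusted p under 0.05, edgeR's quasi-likelihood test called 0 of the 10 genes and 0% of all genes, and edgeR's exact test also called 0 members. At an unadjusted P under 0.05 there were 5 members, Pde10a, Pde1b, Pde7b and Pde1c with higher and Pde4a with lower values in treated mice, against 5.5% of all genes. The values in treated mice were 147% of those in untreated mice for Pde10a (log2 fold change 0.55 ± 0.13, unadjusted P = 0.00181, adjusted p = 0.736 in edgeR). In the same edgeR model they were 144% for Pde1b (0.53 ± 0.12, unadjusted P = 0.00173), 137% for Pde7b (0.45 ± 0.16, unadjusted P = 0.0198) and 141% for Pde1c (0.49 ± 0.18, unadjusted P = 0.0192), none with an adjusted p under 0.736. DESeq2 gave the same sizes but an adjusted p of 0.0178 for both Pde10a and Pde1b, which made 2 members called. DESeq2 called 48 genes in all, 0.292% of those to which it gave an adjusted p. No member had an unadjusted P under 0.05 with at least a 2-fold change, which 0.771% of all genes had.

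For these 4 genes each treated mouse lay above each untreated mouse, a pattern found in 6.92% of all genes. Pde1a and Pde4a showed the opposite pattern, found in 8.83% of all genes, with 75.5% and 77% of the untreated level and log2 fold changes of -0.40 ± 0.27 and -0.38 ± 0.10, neither called (adjusted p = 0.962 and 0.821 in edgeR). In the other 4 genes the HD groups overlapped, with log2 fold changes of 0.07 ± 0.11 for Pde2a, 0.13 ± 0.09 for Pde8b, 0.06 ± 0.10 for Pde4b and -0.05 ± 0.14 for Pde4d. The marker lists moved between these groups as well. The mean log2 CPM of the projection neuron markers was 7.17 ± 0.13 (SD) in untreated and 7.69 ± 0.04 in treated mice. That of the cortical neuron markers was 6.12 ± 0.21 and 5.54 ± 0.001. The part of both lists in the differences between the HD groups was not tested. With the cortical marker covariate Pde10a had 0.43 and Pde1b 0.41, but the cortical marker means did not overlap between these groups. Relative to the projection neuron marker mean, Pde10a did not separate the HD groups (1.31 ± 0.14 in untreated and 1.36 ± 0.05 in treated mice, exact permutation p = 0.8).

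**Figure D4:**
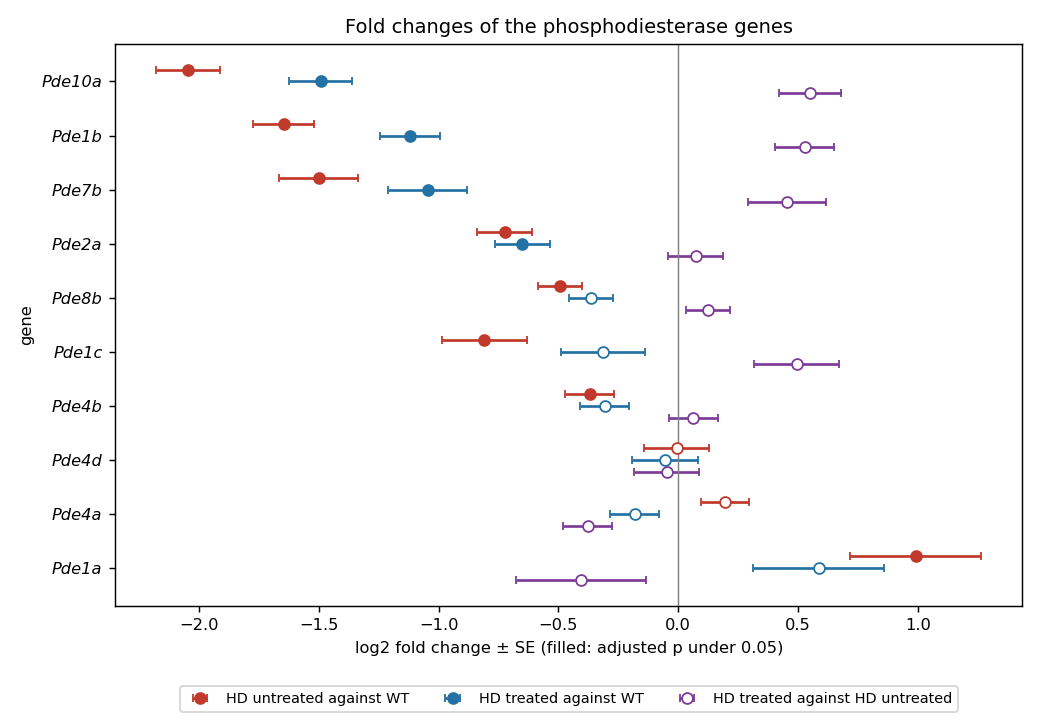
Log2 fold changes (horizontal axis) with their SE for the 10 phosphodiesterase genes in untreated HD mice against WT, treated HD mice against WT and treated against untreated HD mice, with filled points at an adjusted p under 0.05. Filled points are 8 for untreated and 4 for treated mice against WT and 0 between the HD groups, where Pde10a, Pde1b, Pde7b and Pde1c lie between 0.45 and 0.55.

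The genes whose log2 CPM was most like that of Pde10a over the 9 mice were found among 10583 genes with a mean of at least 10 CPM. They were Gm49702 (Pearson r = 0.996), Ppp2r2a (0.995), Gnb5 (0.994), Pde1b (0.994) and Ecsit (0.994). Over the other members r was 0.978 for Pde7b, 0.941 for Pde8b, 0.903 for Pde2a, 0.867 for Pde4b, 0.791 for Pde1c, 0.140 for Pde4d, -0.307 for Pde4a and -0.868 for Pde1a. The mice fall into groups by genotype and share libraries across genes, so these values describe the pattern and carry no p-value.

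Of the 14 other phosphodiesterase genes, 10 passed the filter, and Pde6a, Pde6c, Pde6g and Pde6h, which code for photoreceptor subunits, had at most 12 counts in any library. In untreated mice 2 of the 10 rose and 0 fell, and in treated mice 0 were called by edgeR's quasi-likelihood test, where 2 had an unadjusted P under 0.05, and 1 by DESeq2. Pde5a, which codes for the cGMP-specific enzyme that sildenafil inhibits, had 6.61, 6.83 and 4.32 CPM in WT, between 10.9 and 11.6 CPM in the 3 untreated mice and 9.35, 6.49 and 9.88 CPM in the treated mice. Its log2 fold change in untreated mice was 0.92 ± 0.21 (adjusted p = 0.0264). Pde3b, a gene for a cGMP-inhibited enzyme, had 10.2, 8.44 and 12.7 CPM in WT, 14.7, 17.3 and 21.6 CPM in untreated and 16.1, 19.5 and 16.6 CPM in treated mice (0.77 ± 0.18, adjusted p = 0.0304 for untreated and 0.74 ± 0.18, adjusted p = 0.0579 for treated mice). Both calls in untreated mice were lost with either covariate, where Pde3b had 0.99 with the cortical and 0.49 with the Y-linked one and Pde5a had 0.56 and 0.97. When single mice were left out Pde5a was called in 5 of 9 fits and Pde3b in 4 of 9, with adjusted p-values up to 0.0586 and 0.0908. Neither was called without untreated replicate 2 or untreated replicate 3. Pde7a, the close relative of Pde7b, had a log2 fold change of 0.03 ± 0.11 in untreated mice, and Pde8a, the relative of Pde8b, had 0.06 ± 0.13. Pde6d, which codes for a prenyl-binding protein, had -0.20 ± 0.08 (adjusted p = 0.147).

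In the wider pathway 83 of 86 genes were tested, and in untreated mice 26 fell and 6 rose, while in treated mice 21 fell and 1 rose. Among all genes tested 6.1% passed as lower and 4.58% as higher in untreated mice, and 2.78% and 0.904% in treated mice. The same shares apply to the lists below. Without the 9 genes that are also projection neuron markers, 17 of 74 fell and 6 rose in untreated mice and 12 fell and 1 rose in treated mice. The median log2 fold change of the 83 genes was -0.11 in untreated and -0.12 in treated mice, so that the falls stood beside many genes near 0. Between treated and untreated mice edgeR called 0 pathway genes at an adjusted p under 0.05, as it did 0% of all genes. An unadjusted P under 0.05 was found for 19 of the 83, against 5.5% of all genes. With the cortical marker covariate 11 pathway genes were called in untreated mice, and with the Y-linked covariate 14 in untreated and 0 in treated mice. Over all 19463 genes these fits called 81, 251 and 3.

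The receptors and G proteins that feed the cyclases held the largest share of calls, with 10 of 17 lower and 1 higher in untreated mice and 9 lower in treated mice. Adora2a, an adenosine receptor gene of indirect pathway neurons, had 247, 302 and 299 CPM in WT, 58.5, 76.1 and 59.3 CPM in untreated and 108, 110.0 and 109 CPM in treated mice, and so the 3 groups did not overlap. Its log2 fold change in untreated mice was -2.13 ± 0.12 (adjusted p = 0.000107). Drd2, the dopamine D2 receptor gene, had -1.89 ± 0.14, Gpr6, another receptor gene of these neurons, had -2.13 ± 0.18, and Gnb5, a G protein beta subunit gene, had -1.04 ± 0.09. Treated mice had -1.37, -1.25, -1.42 and -0.78 for these 4 genes. In untreated mice all 4 were called with either covariate and with each mouse left out.

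Among 10 adenylyl cyclase genes, 2 fell in untreated mice. Adcy5 had 1083, 1666 and 1421 CPM in WT, 393, 481 and 406 CPM in untreated and 611, 596 and 561 CPM in treated mice (log2 fold change -1.71 ± 0.15 and -1.24 ± 0.15, adjusted p = 0.000387 and 0.00382). Adcy3 had -0.49 ± 0.09 (adjusted p = 0.0120). Of 11 tested genes of cGMP synthesis and nitric oxide, 2 fell and 1 rose. Gucy1b1, which codes for the beta subunit of soluble guanylyl cyclase, had -0.36 ± 0.06, Nos1, the neuronal nitric oxide synthase gene, had -0.53 ± 0.14, and Npr2, a natriuretic peptide receptor gene, had 0.30 ± 0.08 (adjusted p = 0.00795, 0.0373 and 0.0432). Gucy1b1 was called in all 9 fits with a mouse left out, Nos1 in 1 and Npr2 in 0, with adjusted p-values up to 0.110 and 0.143 for Nos1 and Npr2. Neither Adcy3 (-0.50 with the cortical and -0.46 with the Y-linked covariate, adjusted p = 0.232 and 0.165) nor Gucy1b1 (-0.30 and -0.32, adjusted p = 0.245 and 0.144) was called with a covariate in edgeR, and neither were Nos1 and Npr2.

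Downstream of the cyclic nucleotides, 2 of 16 tested kinase and effector genes fell and 2 rose in untreated mice. Rapgef2, a Rap exchange factor gene, had -0.51 ± 0.10, and Prkar2b, a regulatory subunit of protein kinase A, had -0.52 ± 0.13. Prkar1b, another regulatory subunit, had 0.57 ± 0.14 (adjusted p = 0.0335). With the cortical marker covariate Prkar1b had 0.15 (adjusted p = 0.600) and was not called. Prkar1b and Prkar2b were called in 3 and 2 of the 9 fits with a mouse left out. Rapgef2 was called in all 9 but with neither covariate, although its log2 fold change was as large with them (-0.52 with the cortical and -0.47 with the Y-linked one).

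Of 19 scaffold, phosphatase and inhibitor genes, 9 fell and 2 rose. Ppp1r1b, which codes for DARPP-32, the phosphatase inhibitor that protein kinase A switches on in projection neurons, had 1741, 2458 and 2089 CPM in WT, 511, 606 and 568 CPM in untreated and 869, 841 and 807 CPM in treated mice. Its log2 fold change was -1.90 ± 0.13 in untreated and -1.32 ± 0.13 in treated mice (adjusted p = 0.000172 and 0.00261). Ppp1ca, a catalytic subunit of protein phosphatase 1, had -0.85 ± 0.07 and Arpp19, a protein kinase A substrate, had -0.81 ± 0.09. Akap12, an anchoring protein gene, rose by 0.72 ± 0.09 in untreated and 0.75 ± 0.09 in treated mice, and with the cortical marker covariate it had 0.76 (adjusted p = 0.0766) and 0.78 (0.0264). Of 7 genes of cAMP-driven transcription, Crtc1, a coactivator of CREB, fell (-0.39 ± 0.08, adjusted p = 0.0200) and the other 6 did not pass the test; Crtc1 was not called without untreated replicate 2 or untreated replicate 3 (adjusted p up to 0.0610). None of the 3 calmodulin genes, whose protein activates the PDE1 enzymes, passed in any comparison in edgeR's quasi-likelihood test, and 0 had an unadjusted P under 0.05.

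**Figure D5:**
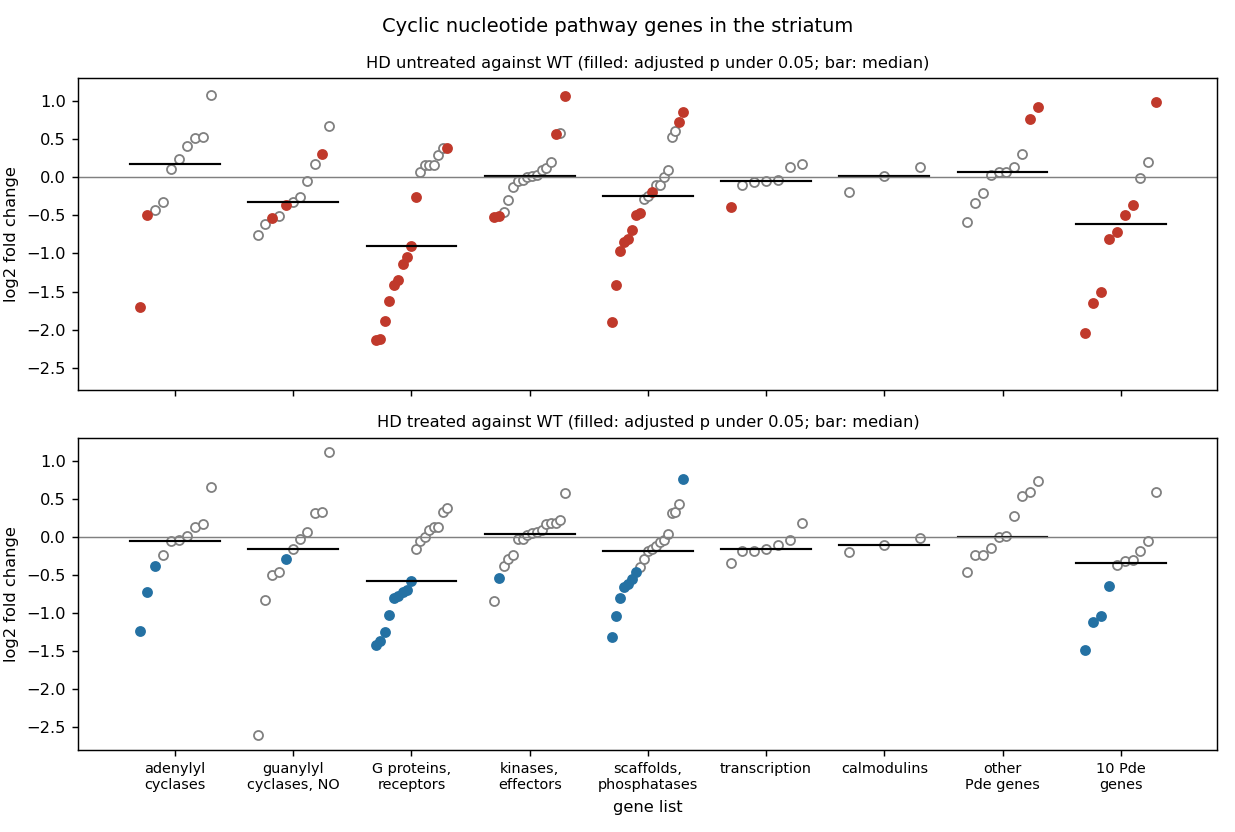
Log2 fold changes (vertical axes) of single genes in 7 lists of cyclic nucleotide signalling, the other phosphodiesterase genes and the 10 phosphodiesterase genes, in untreated (upper panel) and treated HD mice (lower panel) against the same WT mice. Filled points have an adjusted p under 0.05 and bars are list medians; the lowest medians in the upper panel are -0.90 for G proteins and receptors and -0.61 for the 10 genes, while that of the calmodulin genes is 0.02.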

How the data were processed

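Striatal RNA of 9 mice was sequenced from oligo-dT primed 3′ mRNA libraries, and the pig samples were not used here. The authors deposited raw counts per Ensembl gene, without normalization. The study's methods name STAR, whereas the submitters' processing notes name Trimmomatic 0.39, FastQC 0.11.9, HISAT2 2.2.1 and featureCounts 2.0.1, and the mouse build is not given in the sources used here. Strand use in counting is not given either. Gene symbols were matched by Ensembl gene ID in a table of gene names, chromosomes and exon overlaps came from GENCODE M21, and start site windows came from RefSeq (GRCm38.p6).

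Differential expression was computed with edgeR 4.0.16 in R 4.3.3. Of 55357 genes, 19463 passed filterByExpr. Libraries were scaled by TMM, all 9 were fitted together with glmQLFit (6 residual degrees of freedom), and glmQLFTest was followed by Benjamini-Hochberg adjustment over all tested genes at 0.05. The SE of a log2 fold change was obtained as its ratio to the square root of the F statistic. Log2 CPM used a prior count of 2. Single values per mouse were compared by two-sided exact permutation tests. Replicates are different mice, and where litters or batches were shared is not given. DESeq2 1.42.0 was an alternative. The steps were tested on simulated data. Figures were drawn with matplotlib 3.10.9.

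The members and gene lists were chosen with earlier results of these data known. All 10 members are named, the other phosphodiesterase genes when called in either comparison with WT plus the 3 with the highest mean CPM, at most 4 called genes of each pathway list by smallest P in untreated against WT, and the 5 genes most correlated with Pde10a. The values of 1 gene that this rule names are not reported here. The study's methods and results give different P thresholds for DEGs, and both were applied.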

Additional observations from a re-analysis of the deposited data

How the results depend on the processing

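Under all 19 alternatives Pde10a, Pde1b and Pde7b remained called as lower in untreated mice. Members called in untreated mice against WT (8) numbered 4 in a fit of only the compared groups, 3 with the Y-linked covariate, 3 with the cortical marker covariate (added after the data were seen), 3 with unadjusted P under 0.05 at 2-fold or more and 3 with P under 0.01 at that size, and from 5 to 8 with each mouse left out. Members called in treated mice (4) numbered 0 with the Y-linked covariate and from 2 to 7 with each mouse left out, 7 being without WT replicate 1 and 2 when any treated mouse was left out. Between treated and untreated mice DESeq2 called 2 members instead of 0, with log2 fold changes for Pde10a of 0.56 (adjusted p = 0.0178). Pde10a in treated mice against WT had -1.52 (adjusted p = 0.148) with the Y-linked covariate. Other phosphodiesterase genes called in untreated mice (2) numbered 0 without a filter, in a fit of only the compared groups, with either covariate and under both of these unadjusted rules, and from 0 to 2 with each mouse left out; in treated mice (0) they numbered 1 with DESeq2, with edgeR's exact test and when only both compared groups were fitted, and from 0 to 1 with each mouse left out. Pathway genes called in untreated mice (32) numbered 21 in a fit of only the compared groups, 14 with the Y-linked and 11 with the cortical marker covariate and 12 under both of these unadjusted rules; in treated mice (22) they numbered 0, 13 and 9 with the Y-linked covariate, the cortical marker covariate and both of these unadjusted rules, and from 9 to 25 with each mouse left out. Directions turned for Pde4d, which never passed: library size scaling gave 0.0442 in untreated and 0.0048 in treated mice, the cortical marker covariate 0.128 and 0.0235, and leaving out a mouse gave from -0.14 to 0.0862 in untreated, from -0.12 to 0.0344 in treated and from -0.14 to 0.0839 between treated and untreated mice. Pde4b between the HD groups turned to -0.0623 with the cortical marker covariate. The causes were not tested. The replicate numbers were not treated as pairs. Correlations of same-numbered mice lay between -0.081 and 0.236. Differently numbered mice were not compared, so these values cannot show whether mice shared a litter or batch. With a replicate block 8, 4 and 0 members were called in the 3 comparisons, and no call of a member changed. Scaling moved the median of all genes by at most 0.07.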
